A study of Mus musculus with 5 samples.

Results

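The genes described here bind, take up and release fatty acids: Fabp3, Fabp4, Fabp5, Cd36, Lpl, Gpihbp1, Pnpla2, Angptl4 and Vldlr. Members were every probe set (a set of short probes that reads 1 transcript) that the platform annotation assigned to a single gene, that gene being on this list by current or former symbol. All 9 genes were found, of 18193 genes with such a probe set, and they were read by 24 of the 45037 probe sets tested. RNA came from thoracic aorta of male C57BL/6 mice, on 5 Affymetrix arrays of the Mouse Genome 430 2.0 type. The 2 non-transgenic arrays held RNA of littermates without the transgene, and the 3 P467L arrays RNA of mice that express a dominant negative human PPARγ carrying the P467L mutation, driven by the smooth muscle myosin heavy chain promoter. Each array was a pool of 6 to 8 aortas, described as an independent biological replicate, and ages are not given in the labels. The comparison asks which transcripts differ when PPARγ is interfered with in vascular smooth muscle by a transgene that the promoter directs to smooth muscle and not to the other cells of the vessel wall.

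PPARγ is a nuclear receptor that binds DNA as a partner of the retinoid X receptor and switches on genes of lipid storage and handling, above all in adipocytes. Triglyceride in circulating lipoproteins is split at the capillary wall by lipoprotein lipase, the fatty acids enter cells with the help of CD36, and fatty acid binding proteins carry them through the cytoplasm. Stored triglyceride is opened again from inside the cell by adipose triglyceride lipase. Several of these genes, Fabp4 and Cd36 among them, are textbook PPARγ targets, and the fat that surrounds the aorta expresses most of them strongly.

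P467L aortas had higher values of Pnpla2, which encodes adipose triglyceride lipase, by 0.81 and 0.85 log2 units in its 2 probe sets, and of Fabp3, the heart-type fatty acid binding protein, by 0.52 in the brighter of its 2 probe sets, while the dimmer gave -0.05. Values of Fabp5, the epidermal type, were lower by both probe sets, at -0.49 and -0.39, and those of Fabp4, the adipocyte type, by all 4, from -0.59 to -0.25. The non-transgenic arrays differed by 0.74 and 0.53 in the 2 brightest Fabp4 probe sets and by 0.41 in the dimmer of Fabp5. In each this was more than the difference between the genotypes. The same held for Cd36, Lpl, Gpihbp1 and the brighter Angptl4 probe set. The group means of the 3 brightest Vldlr probe sets differed by at most 0.03. None of the differences between the genotypes passed the test. limma called 0 of the 24 probe sets at an adjusted p of 0.05, against 0% of all 45037, and the smallest adjusted p among the members was 0.279, for Fabp3. Array weights gave P467L replicate 2 by far the most weight, and their estimate did not converge. With them limma called 4 of the 24, from Fabp3, Fabp4 and Pnpla2, and 2245 of all 45037 probe sets. At an unadjusted p of 0.05 with equal weights limma took 3 of the 24 as higher (12.5%, against 4.71% of all probe sets) and 2 as lower (8.33%, against 2.74%). In 3 probe sets the P467L arrays all lay above both non-transgenic arrays and in 2 all below. Those shares, 12.5% and 8.33%, stood near the 11.2% and 7.61% of all probe sets. Over the 24 probe sets 7 differences were above 0 and 17 below, with a median of -0.07, beside a median of 0.00 over all probe sets. With the brightest probe set of each gene, 4 were above 0 and 5 below, with a median of -0.01 beside 0.02 over all genes.

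**Figure D1:**
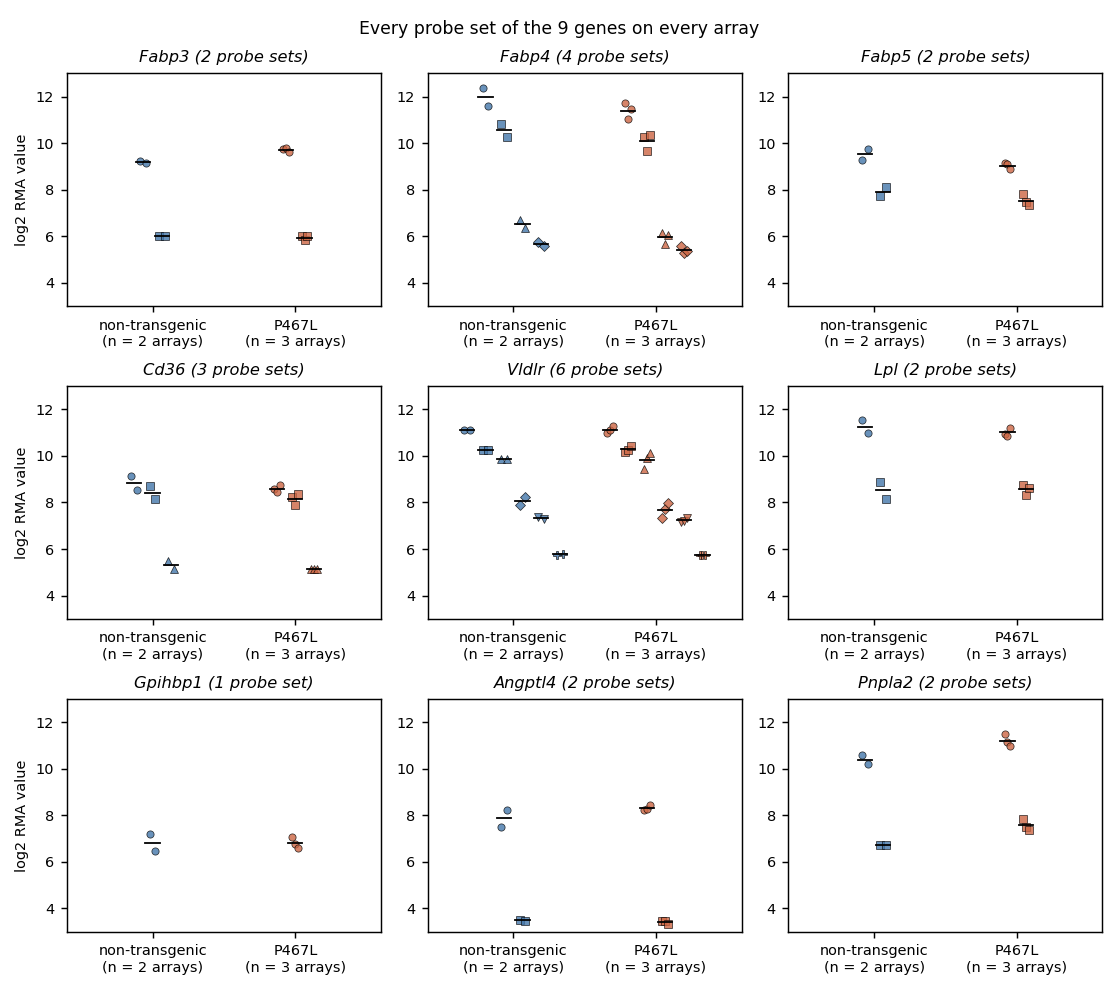
Log2 RMA values of all 24 probe sets of the 9 genes on the 2 non-transgenic and 3 P467L arrays. Each point is an array, each marker shape a probe set (brightest leftmost) and each bar a group mean; both Pnpla2 probe sets and the brighter Fabp3 probe set have all P467L arrays above both non-transgenic arrays. Heights of different probe sets are not comparable.

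The arrays had near-equal medians, from 6.17 to 6.25, and smooth muscle markers were bright on all of them. Acta2, the smooth muscle actin, ran from 14.79 to 14.83, near the top of the scale. Of 7 smooth muscle markers 2 had groups apart, both higher in P467L: Des by 0.81 and Smtn by 0.16. Over all genes 16.1% lay apart and higher and 6.55% lower. P467L replicate 1 stood apart over all transcripts, with correlations of 0.985 to 0.991 to the other arrays. Non-transgenic replicate 2 had high stomach transcripts: the summed linear level of 7 measured stomach markers was 33824 there and 2482 to 4999 on the other arrays. Adipocyte markers differed between the non-transgenic arrays. The summed linear level of 5 measured white adipocyte markers that are no members (Adipoq, Cidec, Lipe, Retn and Lep) was 2328 and 1252 in non-transgenic replicates 1 and 2, and 2349, 1513 and 1565 in P467L replicates 1 to 3. For 8 brown adipocyte markers it was 4348 and 1778, and 2428, 1873 and 2131. In both lists the ranges of the genotypes overlapped, 0 of the 13 markers had groups apart, and Lep of the white list and Cpn2 and Ppargc1a of the brown lay below the median level of all probe sets. In such bulk samples fewer cells of a type and less RNA per cell cannot be told apart.

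A promoter window was at hand from RefSeq (build GRCm38.p6) for 4 of the 9 genes: Fabp3, Pnpla2, Cd36 and Vldlr. Shown are the 250 bases before the start of Fabp3 (chr4:130308488-130308737, + strand) and Pnpla2 (chr7:141454938-141455187, + strand), the genes with higher values in P467L aortas. Beside them stands the window of Cd36 (chr5:17835897-17836146, - strand), a PPARγ target whose groups overlapped. Capitals mark, on either strand, AGGTCA, the core motif of nuclear receptor binding sites, and GGGCGG, the GC box.
Fabp3: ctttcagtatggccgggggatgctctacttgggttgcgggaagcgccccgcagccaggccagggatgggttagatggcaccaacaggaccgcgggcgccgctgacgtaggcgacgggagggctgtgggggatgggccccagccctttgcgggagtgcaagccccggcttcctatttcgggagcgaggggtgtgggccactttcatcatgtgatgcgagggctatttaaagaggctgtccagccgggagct
Pnpla2: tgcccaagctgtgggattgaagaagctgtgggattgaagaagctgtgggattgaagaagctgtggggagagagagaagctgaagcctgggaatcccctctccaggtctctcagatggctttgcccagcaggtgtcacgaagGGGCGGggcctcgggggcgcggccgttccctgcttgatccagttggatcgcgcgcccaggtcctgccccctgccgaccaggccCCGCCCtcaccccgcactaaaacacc
Cd36: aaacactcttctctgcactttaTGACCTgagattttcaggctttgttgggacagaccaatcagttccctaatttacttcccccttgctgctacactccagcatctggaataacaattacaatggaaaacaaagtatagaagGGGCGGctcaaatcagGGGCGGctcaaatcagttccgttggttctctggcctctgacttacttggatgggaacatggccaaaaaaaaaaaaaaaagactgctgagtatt
The Cd36 window held AGGTCA once, on the reverse strand, 228 bases before the start, and GGGCGG at 109 and 93 bases, inside a directly repeated stretch. The Pnpla2 window held GGGCGG at 109 bases and on the reverse strand at 26 bases, and no AGGTCA. The Fabp3 window held neither. Of the windows of 250 bases of all 32851 RefSeq starts, 14.0% held AGGTCA and 32.7% GGGCGG, and no 2 marked matches overlapped here. AGGTCANAGGTCA, in which the core is repeated with 1 base between, the pattern of PPAR binding sites, was in 0.0335% of all windows, and the looser GGNCANAGGNCA, which includes it, in 0.694%. Neither was in the windows of these genes or in either window of Vldlr. The GC content was 64.8% for Fabp3, 63.2% for Pnpla2 and 43.2% for Cd36, beside a median of 52.4% over all windows. A match is a description of these letters and not a binding site, and sites farther from the start were not searched.

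Fabp3 carries fatty acids in heart, skeletal muscle and brown fat. Its brighter probe set, 1416023_at, measured 9.22 and 9.14 on the non-transgenic arrays and 9.74, 9.77 and 9.60 on the P467L arrays. All P467L arrays lay above both non-transgenic arrays, and the gap of 0.38 between the groups was wider than the spread within either of them, 0.08 and 0.17. The difference was 0.52 (SE 0.07, 95% interval 0.33 to 0.71), a ratio of 1.44, with a limma adjusted p of 0.279. The second probe set, 1444844_at, was below the median level, read 5.99 on 4 arrays and 5.83 on P467L replicate 2, and gave -0.05 (SE 0.07).

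Markers of the muscles that use Fabp3 had the following values. The summed linear level of 9 cardiac markers ran from 1096 to 1300 in non-transgenic and from 1520 to 1748 in P467L arrays. That of 9 skeletal markers ran from 545 to 734 and from 696 to 1009. Such sums rest mostly on the brightest genes. The median log2 difference was 0.00 over the cardiac and -0.06 over the skeletal markers. Of the cardiac markers 1, the cardiac troponin Tnnt2, had groups apart, at 8.43 and 8.24 against 9.35, 9.24 and 9.48. The cardiac muscle genes Myh6, at 6.10 and 5.11 against 6.42, 6.05 and 6.83, and Myl7, at 7.18 and 6.72 against 7.50, 7.14 and 7.33, overlapped. The calcium channel Ryr2 ran from 8.02 to 8.63. Actc1 went the other way, at 7.93 and 7.51 against 7.46, 7.30 and 7.51, a difference of -0.30. Of the 9 cardiac markers 4 lay below the median level, among them Myl2 (4.32 to 4.33) and Nppa (4.10 to 4.16). Of the skeletal markers 1, the creatine kinase Ckm, had groups apart, at 7.67 and 7.09 against 9.08, 8.77 and 8.27. Atp2a1 and Acta1 went the other way, at -0.44 and -0.28, with groups that overlapped. Of the 9 skeletal markers 5 lay below the median level. Over all genes 16.1% had groups apart and higher. The part of these cells in the Fabp3 difference was not tested.

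Fabp4, the adipocyte fatty acid binding protein, is also made by capillary endothelium and macrophages. Its brightest probe set, 1417023_a_at, measured 12.35 and 11.61 on the non-transgenic arrays and 11.70, 11.02 and 11.45 on the P467L arrays. P467L replicate 1 lay between the non-transgenic arrays, so the groups overlapped. The difference was -0.59 (SE 0.32, 95% interval -1.46 to 0.28), with a limma adjusted p of 0.784. The second, 1451263_a_at, measured 10.81 and 10.28 against 10.28, 9.64 and 10.36, a difference of -0.45 (SE 0.30). A dimmer one, 1424155_at, measured 6.70 and 6.35 against 6.12, 5.68 and 6.03 and was the only Fabp4 probe set whose groups did not overlap, at -0.58 (SE 0.19, 95% interval -1.09 to -0.08, adjusted p = 0.600 by limma). The dimmest, 1425809_at, gave -0.25 (SE 0.12). In all 4 probe sets non-transgenic replicate 1 was the highest array and P467L replicate 2 the lowest. The summed linear level of 8 macrophage markers ran from 9316 to 9721 in the non-transgenic and from 9525 to 12263 in the P467L arrays. Of the 8, 3 were apart and higher (C1qa, C1qb and C1qc), against 16.1% of all genes. The part of macrophages in the Fabp4 values was not tested.

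The Fabp4 difference moved with the choice of non-transgenic array. Without non-transgenic replicate 1 the brightest probe set gave -0.22, without non-transgenic replicate 2 it gave -0.96, and without that array and P467L replicate 1 together -1.12. With the mean log2 level of the 5 white adipocyte markers as a covariate, an alternative chosen after seeing the data, it gave -0.67 (SE 0.15) and a limma adjusted p of 0.570. That covariate was 8.08 and 7.38 in the non-transgenic and 8.16, 7.63 and 7.65 in the P467L arrays. Adipoq, which encodes adiponectin, measured 10.39 and 9.23 against 10.30, 9.54 and 9.66. For the brightest Fabp4 probe set P467L replicate 1 lay 0.65 below non-transgenic replicate 1. Brown adipocyte markers were lower in that array too: Ucp1 measured 8.86 against 9.92 in non-transgenic replicate 1, Cidea 9.83 against 10.35 and Cox7a1 7.39 against 8.15. The part of brown adipocytes in the Fabp4 values was not tested. Among 11571 other genes above the median level, those whose centred values over the 5 arrays lay nearest to Fabp4 were Prkar2b, a regulatory subunit of protein kinase A, the glycerol phosphate dehydrogenase Gpd1, and Cox7a1, a respiratory chain subunit of muscle and brown fat. Their root mean square differences from Fabp4 were 0.16, 0.16 and 0.17 log2 units.

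Fabp5, the epidermal fatty acid binding protein, is found in epithelia, endothelium and macrophages. Its brighter probe set, 1416021_a_at, measured 9.29 and 9.75 on the non-transgenic arrays and 9.13, 9.08 and 8.89 on the P467L arrays. All P467L arrays lay below, the nearest by 0.16. The difference was -0.49 (SE 0.17, 95% interval -0.94 to -0.03, limma adjusted p = 0.636), a ratio of 0.714. The dimmer probe set, 1416022_at, measured 7.71 and 8.12 against 7.80, 7.46 and 7.33, with P467L replicate 1 above non-transgenic replicate 1. Both probe sets were highest in non-transgenic replicate 2, the array with the high stomach transcripts. Without it the differences were -0.26 and -0.18, and without non-transgenic replicate 1 they were -0.72 and -0.59. The part of the stomach transcripts in this difference was not tested.

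Among protein-coding genes in the RefSeq order, Pmp2 and Fabp9 lie between Fabp5 and Fabp4, with Fabp12 beyond Fabp4. Those 3 relatives, also fatty acid binding proteins, were all below the median level with groups that overlapped: Pmp2 read 5.04 on every array, Fabp9 ran from 4.70 to 4.97 and Fabp12 from 5.04 to 5.33. Of 7 fatty acid binding protein genes outside the members 7 were below the median level and 0 had groups apart. Fabp2, the intestinal type, and Fabp7, the brain type, had the smallest p of these, with 0.19 (SE 0.12) and -0.11 (SE 0.07).

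**Figure D2:**
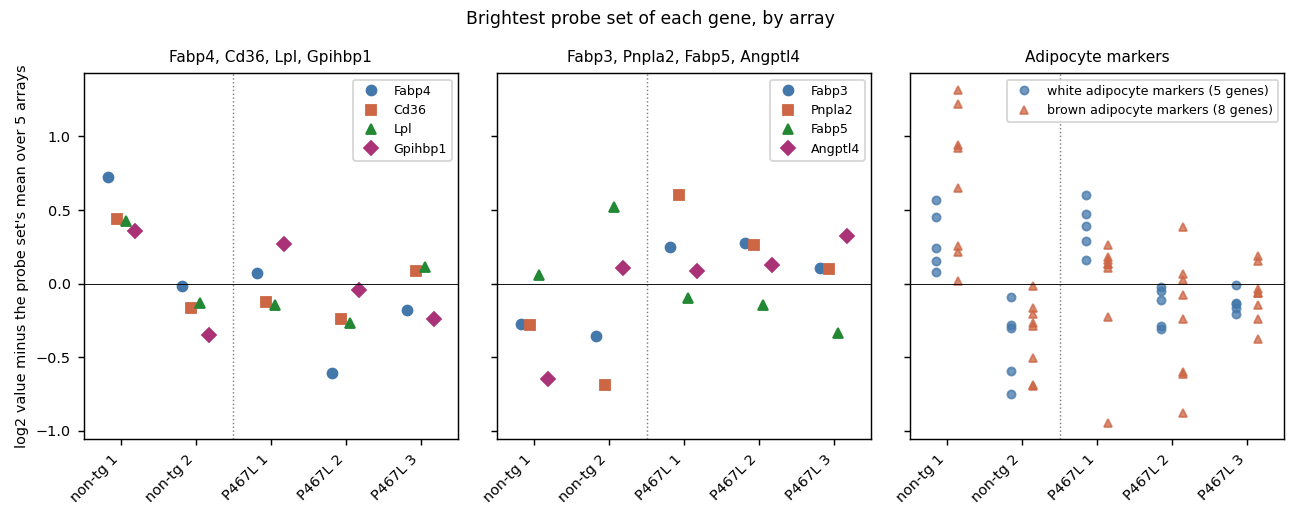
Log2 value minus the probe set's own mean over the 5 arrays, for the brightest probe set of 8 members and for 13 adipocyte markers, by array (non-tg, non-transgenic). Fabp4, Cd36, Lpl and Gpihbp1 are highest in non-transgenic replicate 1, where all 13 markers exceed non-transgenic replicate 2, while Fabp3 and Pnpla2 are higher in all 3 P467L arrays and Fabp5 lower.

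CD36 is the membrane protein that helps long chain fatty acids and oxidised lipoproteins into adipocytes, macrophages, muscle and capillary endothelium. Its brightest probe set, 1423166_at, measured 9.12 and 8.52 on the non-transgenic arrays and 8.56, 8.44 and 8.77 on the P467L arrays. Of the P467L arrays only replicate 2 lay below both non-transgenic arrays. The difference was -0.23 (SE 0.22, 95% interval -0.82 to 0.36, limma adjusted p = 0.823). The other probe sets, 1450883_a_at and 1450884_at, gave -0.26 (SE 0.23) and -0.18 (SE 0.11). Non-transgenic replicate 1 was highest in each, by 0.60, 0.57 and 0.34 over replicate 2. Without it the differences were 0.07, 0.03 and -0.01.

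Vldlr encodes the very low density lipoprotein receptor, which binds triglyceride-rich particles and helps lipoprotein lipase supply heart, muscle and fat. Its 6 probe sets were the most of any member. The brightest, 1434465_x_at, measured 11.11 and 11.13 on the non-transgenic arrays and 10.99, 11.13 and 11.28 on the P467L arrays, a difference of 0.01 (SE 0.10, 95% interval -0.25 to 0.28). Probe sets 1417900_a_at and 1435893_at gave 0.03 (SE 0.09) and -0.02 (SE 0.22). In these 3, the non-transgenic arrays differed by at most 0.02 while P467L replicate 1 was the lowest and P467L replicate 3 the highest of all arrays. The largest difference came from 1438258_at, at 7.91 and 8.25 against 7.32, 7.71 and 7.98, or -0.41 (SE 0.24, limma adjusted p = 0.784). It was highest in non-transgenic replicate 2 and lowest in P467L replicate 1, and its groups overlapped. Without those arrays together the difference was -0.065, and leaving out single arrays gave -0.58 to -0.235. The other 2, 1442169_at and 1451156_s_at, gave -0.08 (SE 0.07) and -0.03 (SE 0.04). Probe sets whose names end in x_at or s_at can hold probes that match more than 1 transcript.

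Lipoprotein lipase, the product of Lpl, is made by adipocytes, muscle and macrophages and frees fatty acids from lipoprotein triglyceride. Its brighter probe set, 1415904_at, measured 11.53 and 10.97 on the non-transgenic arrays and 10.96, 10.84 and 11.22 on the P467L arrays. The P467L arrays spread across the lower non-transgenic value, and the difference was -0.24 (SE 0.22, 95% interval -0.83 to 0.34, limma adjusted p = 0.813). The other, 1431056_a_at, measured 8.89 and 8.15 against 8.74, 8.33 and 8.62, a difference of 0.04 (SE 0.27). All P467L arrays lay between the non-transgenic ones there.

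GPIHBP1 is the protein of capillary endothelium that carries lipoprotein lipase to the vessel lumen. Its only probe set, 1453022_at, measured 7.18 and 6.47 on the non-transgenic arrays and 7.09, 6.78 and 6.58 on the P467L arrays, all inside the non-transgenic range. The difference was -0.01 (SE 0.28, 95% interval -0.76 to 0.74, adjusted p = 1.00 by limma). The summed linear level of 8 other endothelial markers was 6616 and 6784 in the non-transgenic arrays and 6732 to 7207 in the P467L arrays. Of the 8, 3 were apart and higher and 2 apart and lower, against 16.1% and 6.55% of all genes. The largest differences between the genotypes in each direction were those of Cldn5, at 0.73 (SE 0.12), and Emcn, at -1.05 (SE 0.12). Their limma adjusted p were 0.341 and 0.234. Gpihbp1 was higher by 0.71 in non-transgenic replicate 1 than in replicate 2. Of the 8 other markers 3 were higher there too: Kdr, an endothelial growth factor receptor, by 0.33, Cldn5 by 0.12 and Pecam1 by 0.01. Tie1, Tek and Cdh5 were equal, and Emcn and Vwf went the other way, at -0.08 and -0.16. The part of endothelial cells in the Gpihbp1 values was not tested. Non-transgenic replicate 1 was the highest array for Gpihbp1, for both Lpl probe sets and for all 3 of Cd36, and 7 of the 8 brown but 1 of the 5 white adipocyte markers were highest there too. The part of adipocytes in these values was not tested.

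Angptl4 encodes a secreted inhibitor of lipoprotein lipase that is induced by fasting and by PPAR ligands. Probe set 1417130_s_at measured 7.49 and 8.24 on the non-transgenic arrays and 8.22, 8.26 and 8.46 on the P467L arrays. Non-transgenic replicate 1 stood alone at the bottom, and the other 4 arrays lay within 0.24 of each other. The difference was 0.45 (SE 0.25, 95% interval -0.23 to 1.13, limma adjusted p = 0.784), and without non-transgenic replicate 1 it was 0.07. The second probe set, 1453410_at, was near the bottom of the scale, from 3.34 to 3.51, and gave -0.06 (SE 0.06).

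Pnpla2 encodes adipose triglyceride lipase, which takes the first fatty acid from stored triglyceride in fat, heart and other tissues. Probe set 1428143_a_at measured 10.60 and 10.19 on the non-transgenic arrays and 11.48, 11.14 and 10.98 on the P467L arrays. The lowest P467L array lay 0.38 above the higher non-transgenic one. The difference was 0.81 (SE 0.21, 95% interval 0.24 to 1.37), a ratio of 1.75, with a limma adjusted p of 0.517. The dimmer probe set, 1428591_at, measured 6.71 and 6.73 against 7.84, 7.51 and 7.36, or 0.85 (SE 0.16, 95% interval 0.42 to 1.28, adjusted p = 0.403 by limma). Here the gap between the groups was 0.63, and the non-transgenic arrays differed by 0.02.

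P467L replicate 1, the array that stood apart, was the highest for both Pnpla2 probe sets. Without it they gave 0.67 and 0.72, and without both it and non-transgenic replicate 2 they gave 0.46 and 0.73. With the white adipocyte marker level as a covariate the differences were 0.75 (SE 0.08) and 0.82 (SE 0.15). Both adjusted p by limma, 0.483 and 0.524, missed the threshold there too. The genes nearest to Pnpla2 in centred values were Apcdd1, an inhibitor of Wnt signalling, with a root mean square difference of 0.03 over the 5 arrays, desmin (Des) with 0.09 and BC028528 with 0.10. Nearest to Fabp3 were Cd59a, a complement regulator, Slc6a17, a neuronal amino acid transporter, and the Wnt inhibitor Wif1, with 0.02, 0.03 and 0.03. With 5 arrays and 11571 genes compared, these names describe the values only.

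**Figure D3:**
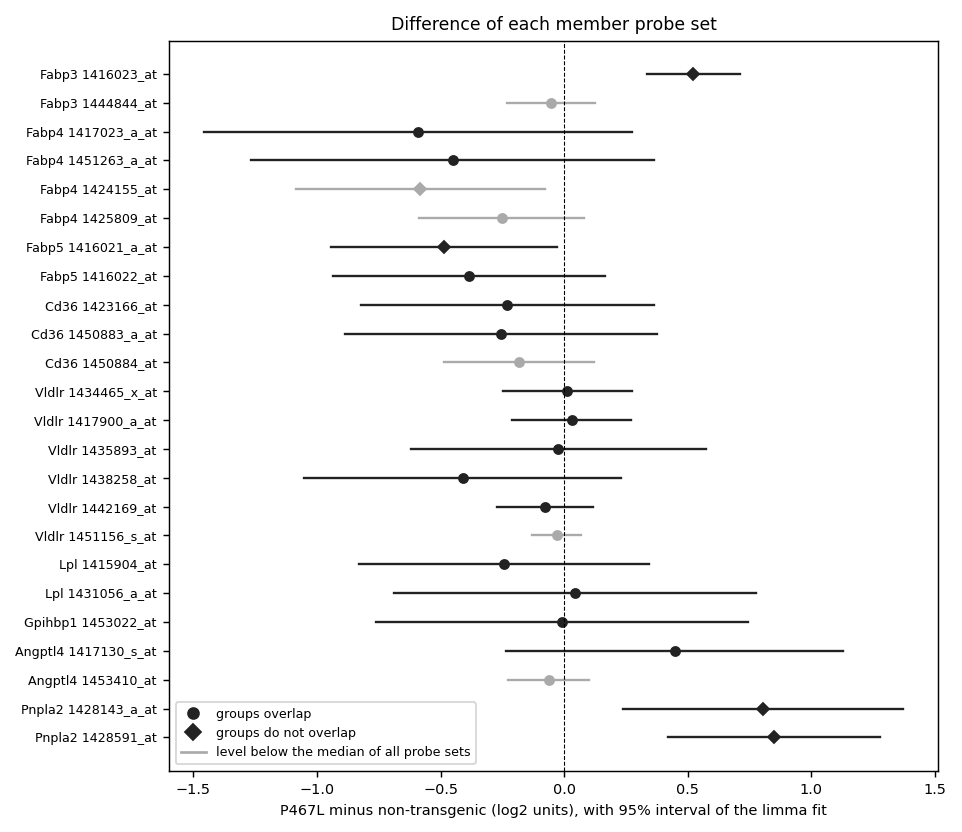
P467L minus non-transgenic in log2 units for each of the 24 probe sets, with the 95% interval of the limma fit. Diamonds mark the 5 probe sets whose groups do not overlap and grey the 6 below the median level of all probe sets. Before adjustment over all probe sets, the intervals of both Pnpla2 probe sets and of Fabp3 1416023_at lie above 0. Those of Fabp4 1424155_at and Fabp5 1416021_a_at lie below 0.

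Partners of these proteins were read from lists of 54 genes, of which 47 were measured by a single-gene probe set and the rest were not analysed here. By limma 0 of the 47 passed over all probe sets, and at an unadjusted p of 0.05 limma took 5 as higher and 0 as lower. These are 10.6% and 0% of the 47, against 6.94% and 2.51% of all genes read by their brightest probe set. The median difference was 0.02, beside 0.02 over all genes. Groups did not overlap in 9 of the 47, with 8 higher (17.0%, against 16.1% of all genes) and 1 lower (2.13%, against 6.55%).

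Around adipose triglyceride lipase, 13 lipolysis and lipid droplet genes had a median of 0.04, with 8 above 0 and 5 below. Plin3, a coat protein of small lipid droplets, measured 9.78 and 9.89 against 10.14, 10.15 and 9.99, or 0.26 (SE 0.07, limma adjusted p = 0.546). Mgll, the monoglyceride lipase of the last step, measured 11.54 and 11.45 against 11.37, 11.27 and 11.09, or -0.25 (SE 0.10). These were the 2 genes of the list whose groups did not overlap. Genes of this list that were named after their values were seen overlapped between the groups. The difference was 0.11 (SE 0.08) for Abhd5, the coactivator of adipose triglyceride lipase, and 0.04 (SE 0.19) for G0s2, the inhibitor of that lipase. For Lipe, the hormone-sensitive lipase, it was 0.12 (SE 0.24).

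Fatty acid transport proteins and acyl-CoA synthetases, which trap fatty acids inside the cell, had a median of -0.01 over 9 genes. Acsl5 was at 0.14 (SE 0.05) and Slc27a1 at 0.26 (SE 0.15), the 2 with groups apart. Regulators of lipoprotein lipase and related lipases had a median of 0.03 over 12 genes. Of these, 3 were apart and higher (25%, against 16.1% of all genes): Sel1l, Furin and Lmf1. The largest difference of the list was that of Lmf1, at 0.32 (SE 0.18). Sel1l, which helps lipoprotein lipase leave the endoplasmic reticulum, was at 0.10 (SE 0.03), and Furin, a protease that cleaves lipases and their inhibitors, at 0.10 (SE 0.05). Other lipoprotein receptors related to Vldlr had a median of 0.07 over 6 genes. Lrp8, the apolipoprotein E receptor closest to Vldlr, measured 6.17 and 6.20 against 6.81, 6.56 and 6.73, or 0.52 (SE 0.09, limma adjusted p = 0.360). Lrp1, a large receptor for lipoprotein remnants, was at 0.12 (SE 0.03). The P467L arrays all lay above the non-transgenic ones for both receptors. The groups overlapped in all 6 Vldlr probe sets, and the difference between these genes was not tested.

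**Figure D4:**
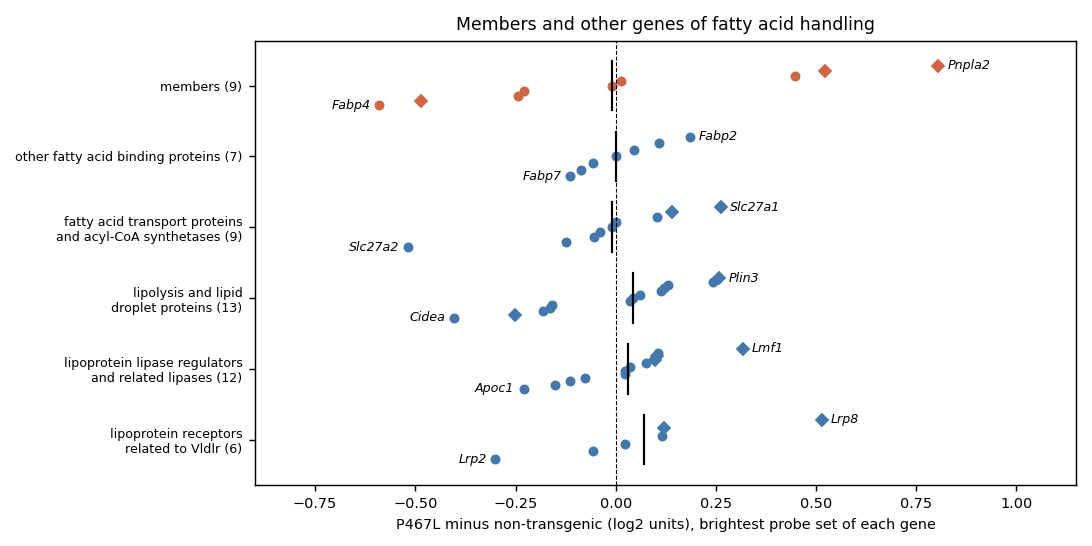
P467L minus non-transgenic in log2 units for the brightest probe set of each member gene and of 47 other genes of fatty acid handling, by list, with the number of genes in parentheses. Diamonds mark genes whose groups do not overlap, black bars the list medians; Pnpla2 has the highest value and Fabp4 the lowest.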

How the data were processed

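RNA of pooled thoracic aortas was measured on 5 arrays, 2 non-transgenic and 3 P467L, grouped by their titles. The authors deposited log2 values; the submitters' processing notes name RMA and Affymetrix Power Tools without versions. RMA subtracts background, forces the arrays to a common distribution and combines the probes of each set, which removes any change common to most transcripts. Values carry no detection call, and 5 arrays allow little precision.

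Names came from the platform annotation, with symbols updated by gene number from the GRCm38.p6 table, which served for names and gene order only. Of 45101 probe sets 64 Affymetrix controls were left out. In lists, a gene's brightest single-gene probe set (highest mean) stood for it. limma 3.58.1 (R 4.3.3; lmFit and eBayes, two-sided, 4.23 total degrees of freedom) compared the genotypes, with p-values adjusted by Benjamini-Hochberg across the 45037 probe sets and called at 0.05. Differences are P467L minus non-transgenic. The code was tested on simulated data. Named genes are every member probe set, the 2 genes with the smallest p of each partner list, and the 3 genes nearest in centred values to Fabp4, Fabp3 and Pnpla2. The members, lists and alternatives were chosen with earlier results of these data known. Marker and partner genes named beyond that rule were picked after seeing values.

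Alternatives were a replicate block, median centring, a second quantile normalization, a filter at the median level, a variance trend, array weights, leaving out arrays, a threshold of 0.10 and 1 probe set per gene, and, chosen after seeing the data, an adipocyte marker covariate and gene-by-gene weights.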

Additional observations from a re-analysis of the deposited data

How the results depend on the processing

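Over the settings tried with all probe sets the direction did not change for Fabp3 1416023_at (0.47 to 0.59), both Pnpla2 probe sets (0.46 to 1.01 and 0.72 to 0.96), all 4 of Fabp4 (-1.12 to -0.22 for the brightest) and both of Fabp5 (-0.72 to -0.26 for the brighter). The calls depended on array weights. The planned weights, whose estimate stopped before it converged, gave P467L replicate 2 a weight of 34.1, called 2245 probe sets and 4 member probe sets: Fabp3 1416023_at, Fabp4 1424155_at and both of Pnpla2. Weights estimated gene by gene, chosen after seeing the data, called 283 and 2, Fabp3 1416023_at and Pnpla2 1428591_at. Median centring called 15 probe sets, a threshold of 0.10 called 17, and 1 probe set per gene called 10, with 0 members each.

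Directions turned for 9 probe sets, of Cd36, Lpl, Gpihbp1 and Vldlr. Without non-transgenic replicate 1 Cd36 1423166_at gave 0.07, Cd36 1450883_a_at 0.03 and Lpl 1415904_at 0.0367, the highest values when single arrays were left out; the lowest, -0.53, -0.54 and -0.52, came without non-transgenic replicate 2. Gpihbp1 gave 0.11 with the replicate block, 0.0317 with median centring and 0.014 with a second quantile normalization, and from -0.36 to 0.35 when single arrays were left out. Lpl 1431056_a_at gave -0.19 with array weights, -0.15 with weights gene by gene, -0.0272 with the adipocyte covariate and -0.42 without both arrays that stand apart, and from -0.33 to 0.41 when single arrays were left out. For Vldlr, 1417900_a_at gave -0.04 and 1434465_x_at -0.06 with the replicate block, and -0.0103 and -0.0217 with a second quantile normalization, and leaving out single arrays gave -0.04 to 0.09 and -0.06 to 0.085. Vldlr 1435893_at gave 0.0167 with median centring, 0.0792 with array weights, 0.0729 with weights gene by gene, 0.0166 with the adipocyte covariate and 0.17 without both arrays that stand apart, and from -0.17 to 0.17 when single arrays were left out. Vldlr 1451156_s_at gave 0.01 with median centring and 0.0167 with a second quantile normalization. The mean over all Vldlr probe sets was -0.0831, against 0.01 for the brightest. The cause of these turns was not tested.

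With the replicate number as a block 0 probe sets and 0 members were called, as without it. Deviations of same-numbered arrays correlated at 0.11 and 0.01, beside 0.15 for non-transgenic replicate 2 with P467L replicate 3. With 2 non-transgenic arrays the deviations of 1 mirror those of the other. These values therefore cannot settle whether the numbers mark pairs, and the main fit took the arrays as unpaired. Fits that leave 1 non-transgenic array assume that it varies like the P467L arrays. The deposited values carry no detection call, so what is not detected cannot be told from what is low.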
